A study of Mus musculus with 5 samples.

Results

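The 9 podocyte genes described here are 9 of the 22980 genes listed in at least 1 of the 2 deposited count tables. They were Nphs1, Magi2, Podxl, Ptpro, Thsd7a, Synpo, Nebl, Clic5 and Wt1, a given list of slit diaphragm and foot process genes, taken as the rows of those symbols in both tables. The study profiled mouse kidney (C57BL/6, per the labels' protocols) barcode by barcode in 5 libraries, 1 per group. The disease group was nuclei, run on the 10x droplet system, of kidney with unilateral ureteral obstruction (UUO) of 14 days, an operation that blocks urine outflow from 1 kidney and leaves it scarred. The healthy groups were nuclei on the same 10x system, nuclei by sNucDrop-seq (Drop-seq adapted to nuclei), nuclei by DroNc-seq (another droplet method for nuclei), and whole cells by Drop-seq. Cells were freed with the enzyme mix Liberase and sorted on light scatter, and nuclei were freed with detergent and a Dounce homogenizer. The sources used here do not give the age or number of animals behind a library. With 1 library per group no difference has a replicate check, no test was made, and every interval below is an exact 95% interval that covers counting error only.

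Podocytes are the epithelial cells on the outer face of the glomerular capillary, and their interlocking foot processes leave slits through which plasma is filtered. The slit is bridged by the slit diaphragm, whose backbone is the adhesion protein nephrin, held to the actin cytoskeleton by scaffold proteins. A charged surface coat keeps neighbouring foot processes apart, and the transcription factor Wt1 is needed to form and keep the cell type. Mutations in several of these genes cause inherited nephrotic syndrome in people.

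Promoter windows are shown for 4 members, since the members share a cell type and Wt1, itself a member, is known to bind GC-rich DNA. RefSeq windows on GRCm38.p6, from 250 bases before to 50 after a transcript start, were found for 6 of the 9 members (10 windows). The letters GTGGGNG, the core of the Wt1 motif, were searched on both strands, and matches stand in capitals. Nphs1 (chr7:30459808-30460107, plus strand) held 1 match, which begins 225 bases before the start, Ptpro (chr6:137252049-137252348, plus strand) 1 match at 35 bases before it, and the first Magi2 window (chr5:19226796-19227095, plus strand) 1 match on the opposite strand at 119 bases before it. The window of Clic5 (chr17:44188322-44188621, plus strand), the member whose level differed most between UUO and healthy podocyte nuclei, held 0.
Nphs1: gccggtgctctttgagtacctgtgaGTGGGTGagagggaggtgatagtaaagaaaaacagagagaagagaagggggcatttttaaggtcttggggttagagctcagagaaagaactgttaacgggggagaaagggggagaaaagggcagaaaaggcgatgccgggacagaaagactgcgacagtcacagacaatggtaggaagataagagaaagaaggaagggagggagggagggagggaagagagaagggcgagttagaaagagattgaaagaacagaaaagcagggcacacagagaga
Ptpro: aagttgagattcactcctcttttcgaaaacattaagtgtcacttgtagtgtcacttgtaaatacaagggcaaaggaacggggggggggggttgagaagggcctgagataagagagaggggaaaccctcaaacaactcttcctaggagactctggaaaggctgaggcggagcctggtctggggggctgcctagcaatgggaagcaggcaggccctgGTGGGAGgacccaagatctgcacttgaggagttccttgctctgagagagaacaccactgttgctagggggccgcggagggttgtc
Magi2: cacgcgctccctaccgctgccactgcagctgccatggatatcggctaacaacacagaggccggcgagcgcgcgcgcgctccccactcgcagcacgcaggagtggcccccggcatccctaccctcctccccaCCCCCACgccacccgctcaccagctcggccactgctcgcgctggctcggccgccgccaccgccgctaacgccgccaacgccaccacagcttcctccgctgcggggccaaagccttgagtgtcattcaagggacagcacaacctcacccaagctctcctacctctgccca
Clic5: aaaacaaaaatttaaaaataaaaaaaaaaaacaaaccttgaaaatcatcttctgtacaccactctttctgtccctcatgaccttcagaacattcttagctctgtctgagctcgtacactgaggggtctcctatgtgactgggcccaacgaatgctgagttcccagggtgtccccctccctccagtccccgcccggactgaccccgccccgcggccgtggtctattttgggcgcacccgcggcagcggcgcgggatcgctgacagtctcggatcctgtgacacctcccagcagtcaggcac
Of the other windows, 1 of 4 Nebl windows held 2 matches, and the second Magi2 window and the Thsd7a window held 0. Of all 32851 windows, 31.6% held at least 1 match, so a match is common, and no match says only that these letters are not in that window.

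Cell types were the authors' deposited labels, and the label Pod is read here as podocyte. It was on 87 nuclei (1.42%) of the UUO library, 53 (2.54%) of the healthy 10x library, 55 (1.83%) of the sNucDrop-seq library, 78 (2.82%) of the DroNc-seq library, and 2 cells (0.0566%) of the Drop-seq library, 275 of 17542 barcodes in all. These podocyte barcodes held 98180, 112059, 129438, 194966 and 3565 UMIs (unique molecular identifiers, 1 per captured transcript) in the same order of libraries, and the median podocyte nucleus held 968 UMIs in UUO, against 1565 in healthy 10x. Whole libraries held 2947137 to 7411036 UMIs. The UUO and healthy 10x libraries shared 23 barcode sequences and the sNucDrop-seq and Drop-seq libraries 1. Transcripts of 4 Y-linked genes summed to 619 CPM (counts per 1e6 UMIs of the sum) in the UUO library, against 3.73 in the healthy 10x library, and the X-inactivation transcript Xist stood at 0.405 CPM in UUO, against 1321 in healthy 10x. Of the other libraries, DroNc-seq had Xist at 1309 CPM and the Y-linked genes at 8.70, as in healthy 10x, while sNucDrop-seq and Drop-seq had Xist at 0 and the Y-linked genes at 446 and 145 CPM, as in UUO. The UUO and healthy 10x libraries therefore differ in sex-linked transcripts as well as in disease, and the effects of sex and of obstruction cannot be told apart between them. The same holds for platform in sNucDrop-seq set against the other healthy nuclei, and for nuclei over cells in 10x and DroNc-seq.

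All 9 members marked the podocyte label in each of the 4 nucleus libraries. All 9 were at least 2-fold higher in podocyte nuclei than over all other labels, where 11.9% of genes were in UUO, 9.57% in healthy 10x, 9.37% in sNucDrop-seq and 8.54% in DroNc-seq. At 10-fold or more there were 9, 8, 8 and 9 members, where 0.894%, 0.779%, 0.597% and 0.737% of genes were in those libraries. The labels belong to these same nuclei, and the sources used here do not state which genes they were made from, so this checks the label and is no independent finding. Together the 9 genes gave 5.89% of podocyte UMIs in UUO, against 4.01% in healthy 10x, and 4.19% in sNucDrop-seq and 7.23% in DroNc-seq. In counts not scaled to gene length, Magi2 alone gave 81.7% of the members' podocyte counts in UUO, against 77.5% in healthy 10x.

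**Figure D1:**
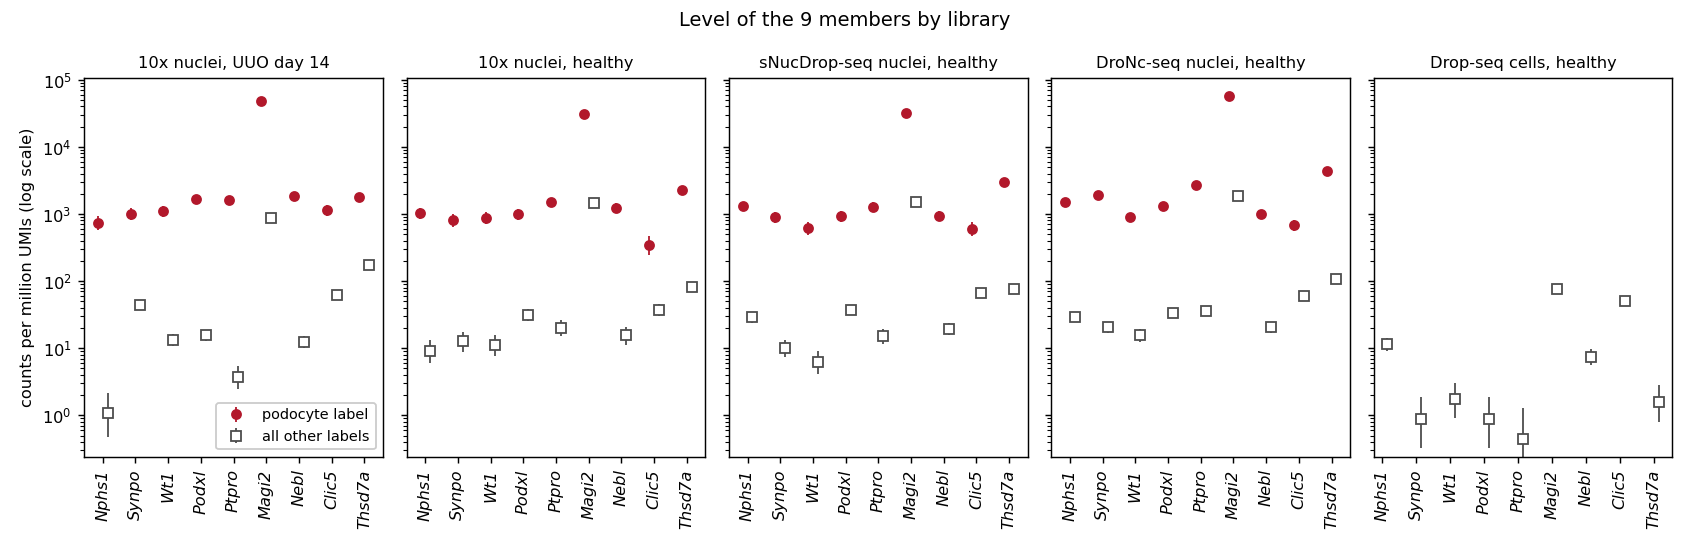
Level of each member in CPM (log scale) in the 5 libraries, summed over podocyte-labelled barcodes (filled circles) and over all other labels (open squares), with exact 95% counting intervals. In each nucleus library every circle stands above its square, with Magi2 at 31091 to 57877 CPM inside the label and 877 to 1869 CPM outside it; counts are not scaled to gene length, and the Drop-seq podocyte label, with 2 cells, is not plotted.

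Of the slit diaphragm genes, Nphs1 encodes nephrin itself. It stood at 744 CPM in UUO podocyte nuclei (interval 583 to 935, 73 UMIs), at 1017 in healthy 10x, at 1313 in sNucDrop-seq and at 1523 in DroNc-seq. Over all other labels it stood at 1.09 CPM in UUO, 9.17 in healthy 10x, 28.9 in sNucDrop-seq and 29.1 in DroNc-seq nuclei, and at 11.4 in Drop-seq cells. Nphs1 was thus the member lowest outside the label relative to its podocyte level in the 2 10x libraries, at 0.147% in UUO (0.0612 to 0.305) and 0.901% in healthy 10x (0.565 to 1.39), but not in the other platforms, where the share was 2.20% and 1.91%. Its interval overlaps that of Ptpro in UUO, at 0.232% (0.148 to 0.351). In healthy 10x it overlaps those of several members, among them Nebl at 1.27% (0.883 to 1.79), so this rank is within counting error. In UUO nuclei it was at 0 in 10 of the 16 other labels, where a count of 0 allows from 3.88 to 63.9 CPM depending on the label.

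Magi2 encodes a scaffold protein that binds nephrin under the slit. It stood at 48095 CPM in UUO podocyte nuclei, 31091 in healthy 10x, 32378 in sNucDrop-seq and 57877 in DroNc-seq. Outside the label it stood at 877 CPM in UUO, 1466 in healthy 10x, 1492 in sNucDrop-seq and 1869 in DroNc-seq nuclei, and at 75.7 in Drop-seq cells. No label of at least 20 nuclei in the nucleus libraries was without it. The lowest label of each library lay between 234 and 802 CPM, and the highest between 1843 and 3085 CPM. In sNucDrop-seq and DroNc-seq the highest was IC-A, at 2714 and 2898 CPM. In each, 1 nucleus that held 5 or more of the members gave 113 of 170 and 291 of 404 of those counts. Without it IC-A stood at 973 and 857 CPM. In UUO nuclei the highest labels were PT(S1) at 1843 CPM and Dediff. PT at 1753 CPM, both proximal tubule labels.

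Among the surface proteins, Podxl encodes podocalyxin, the charged sialomucin of the foot process coat, which endothelial cells also carry. It stood at 1650.0 CPM in UUO podocyte nuclei, 999 in healthy 10x, 927 in sNucDrop-seq and 1318 in DroNc-seq. Its highest other label of at least 20 nuclei was EC, read here as endothelial, in all 4 libraries: 142 CPM in UUO, 388 in healthy 10x, 277 in sNucDrop-seq and 251 in DroNc-seq. In UUO that EC level rested on 36 UMIs in 29 of 326 nuclei with at most 2 in any nucleus, and in healthy 10x on 21 UMIs in 11 of 46 nuclei, 7 of them in 1 nucleus.

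Ptpro encodes a receptor tyrosine phosphatase of the foot process membrane (GLEPP1). It stood at 1589 CPM in UUO podocyte nuclei, 1499 in healthy 10x, 1275 in sNucDrop-seq and 2713 in DroNc-seq. Outside the label it stood at 3.69 CPM in UUO, 20.1 in healthy 10x, 15.1 in sNucDrop-seq and 36.3 in DroNc-seq nuclei, and at 0.437 in Drop-seq cells, the last from 3 UMIs. In UUO its level outside was 0.232% of its podocyte level (0.148 to 0.351), the lowest share there after Nphs1.

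Thsd7a encodes a thrombospondin-domain membrane protein of the foot process and is a target of autoantibodies in human membranous nephropathy. It stood at 1762 CPM in UUO podocyte nuclei, 2258 in healthy 10x, 2959 in sNucDrop-seq and 4370.0 in DroNc-seq. Outside the podocyte label it was not evenly spread. In healthy nuclei its highest other label was IC-B, read here as type B intercalated cell, at 919.8 CPM in 10x (42 of 80 nuclei with a UMI), 606 in sNucDrop-seq (37 of 75) and 548 in DroNc-seq (40 of 83). No single IC-B nucleus gave more than 11.1% of those counts. In UUO, where the labels hold 1 intercalated class, IC, that class stood at 214 CPM, and the highest other labels were PT(S3) at 578 CPM, with a UMI in 228 of 473 nuclei, and EC at 512 CPM.

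Of the cytoskeletal genes, Synpo encodes synaptopodin, which binds actin in foot processes. It stood at 988 CPM in UUO podocyte nuclei, 803 in healthy 10x, 888 in sNucDrop-seq and 1929 in DroNc-seq. Outside the label it was highest in UUO at 44.2 CPM, with 12.7 in healthy 10x, 9.998 in sNucDrop-seq and 20.6 in DroNc-seq nuclei, and at 0.874 in Drop-seq cells. In UUO it was present in all 16 other labels, from 18.6 CPM in CNT to 217 in EC, with 111 in Fib.1, a fibroblast label.

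Nebl encodes nebulette, an actin-binding protein of the nebulin family that is best known from heart muscle. It stood at 1823 CPM in UUO podocyte nuclei, 1223 in healthy 10x, 935 in sNucDrop-seq and 989.9 in DroNc-seq. Outside the label it stayed between 12.6 CPM in UUO nuclei and 20.6 CPM in DroNc-seq nuclei, and at 7.43 CPM in Drop-seq cells. No other label of at least 20 nuclei passed 66.7 CPM.

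Clic5 encodes a chloride intracellular channel family protein that is found with ezrin and podocalyxin at the podocyte surface. It stood at 1141 CPM in UUO podocyte nuclei, 348 in healthy 10x, 603 in sNucDrop-seq and 677 in DroNc-seq. Its share outside was the highest of the 9 members in the 3 healthy nucleus libraries, where it was 10.7% of the podocyte level in 10x, 11.0% in sNucDrop-seq and 8.99% in DroNc-seq. Proximal tubule labels took part in that level: over all of them summed, Clic5 stood at 110.3 CPM in UUO, 72.4 in healthy 10x, 74.7 in sNucDrop-seq and 73.4 in DroNc-seq nuclei, and at 53.6 in Drop-seq cells. The highest other label of at least 20 nuclei was not a proximal tubule one in the healthy nucleus libraries. It was EC at 129 CPM in 10x (7 UMIs), Macrophage at 112 CPM in sNucDrop-seq and LH(DL) at 125 CPM in DroNc-seq (27 UMIs). In UUO the highest other labels were Dediff. PT at 169.6 CPM and PT(S1) at 164 CPM.

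Wt1 encodes the zinc finger factor that defines the lineage. It stood at 1100.0 CPM in UUO podocyte nuclei, 866 in healthy 10x, 618 in sNucDrop-seq and 903 in DroNc-seq, and between 6.22 and 15.5 CPM over the other labels of those libraries. Fib.2 of UUO, a fibroblast label of 68 nuclei, was the exception at 359.9 CPM. There 29 nuclei had a Wt1 UMI and none had more than 3, while Nphs1, Ptpro and Podxl stood at 8.57, 8.57 and 17.1 CPM in the same nuclei. In healthy libraries LH(DL), read here as descending limb, stood at 67.5 CPM in 10x, 44.5 in sNucDrop-seq and 139 in DroNc-seq, with 4 of 10 counts in 1 nucleus in 10x and 9 of 30 in DroNc-seq.

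**Figure D2:**
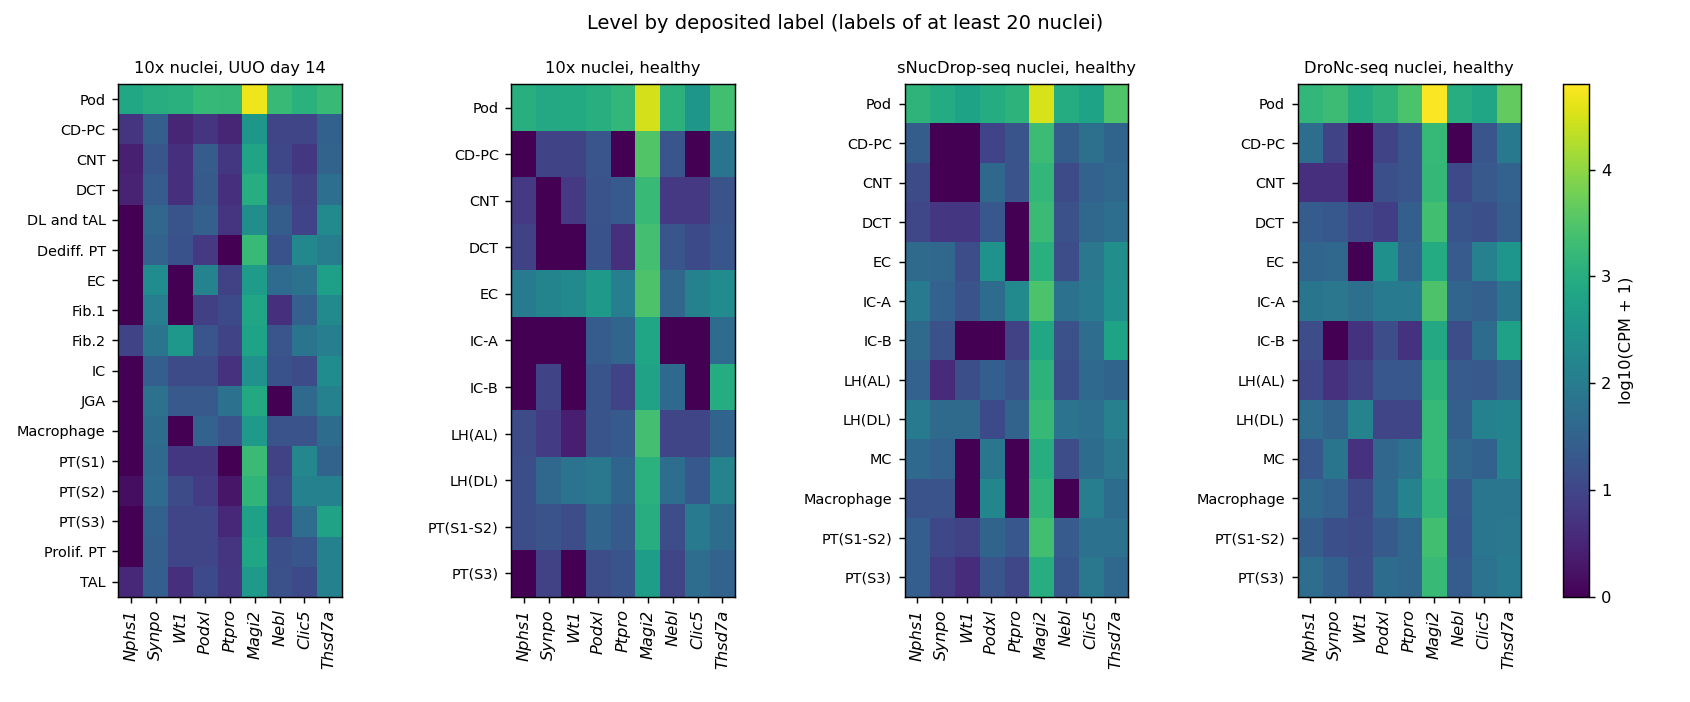
Level of each member, as log10(CPM + 1), in every deposited label of at least 20 nuclei in the 4 nucleus libraries, with the podocyte label (Pod) in the top row. The top row is brightest in every column, and Magi2 was found in every row. Outside the top row and over the 4 libraries together, Wt1 is brightest in UUO Fib.2, Podxl in EC and Thsd7a in healthy IC-B. Single libraries differ: Thsd7a is brightest in PT(S3) in UUO, and Wt1 in EC or LH(DL) in healthy nuclei.

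The level outside the label was not 1 fixed share of the podocyte level. Over the 9 members it ran from 0.147% to 9.72% in UUO (median 1.21%), from 0.901% to 10.7% in healthy 10x (median 1.58%), from 1.01% to 11.0% in sNucDrop-seq (median 2.20%) and from 1.07% to 8.99% in DroNc-seq (median 2.08%). In proximal tubule nuclei alone, the members other than Clic5 stood at 0.662% to 2.53% of their podocyte levels in healthy 10x, at 0.843% to 4.73% in sNucDrop-seq and at 0.939% to 3.62% in DroNc-seq, with Magi2 the highest of them in sNucDrop-seq and DroNc-seq. Clic5 stood at 20.8%, 12.4% and 10.8% in the same 3 libraries. In UUO the same tubule share ran from 0.0370% for Nphs1 (1 UMI in 2352 nuclei) to 12.1% for Thsd7a. How much of each level is free RNA and how much the nuclei's own was not tested.

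Nuclei outside the label that held many members were few, and the part of the outside counts they gave differed among libraries. Podocyte nuclei held a UMI of 6 members in the median UUO nucleus and of 8 in the median nucleus of each healthy library, against 1 in the median nucleus of other labels in all 4. Outside the label 5 or more members were found in 2 UUO nuclei, 5 in healthy 10x, 6 in sNucDrop-seq, 23 in DroNc-seq and 0 Drop-seq cells. In healthy 10x those 5 nuclei held 46.2% of the outside Nphs1 counts and 34.4% of the Wt1 counts, and in DroNc-seq the 23 nuclei held 34.5% of the Nphs1 counts and 37.6% of the Synpo counts. In sNucDrop-seq the 6 nuclei held 8.46% of the Nphs1 counts, 3.57% of the Wt1 counts and 26.5% of the Ptpro counts, and in UUO the 2 nuclei held 0 of the outside counts of Nphs1, Wt1, Podxl and Ptpro. These nuclei were chosen by their member UMIs, so the shares are a description. The healthy 10x EC label is an example: Wt1 stood at 185 CPM there with 1 such nucleus and at 20.0 CPM without it. The IC-A label is another, with Ptpro at 192 CPM in sNucDrop-seq and 17.1 without 1 nucleus. Whether these barcodes hold 2 nuclei was not tested.

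**Figure D3:**
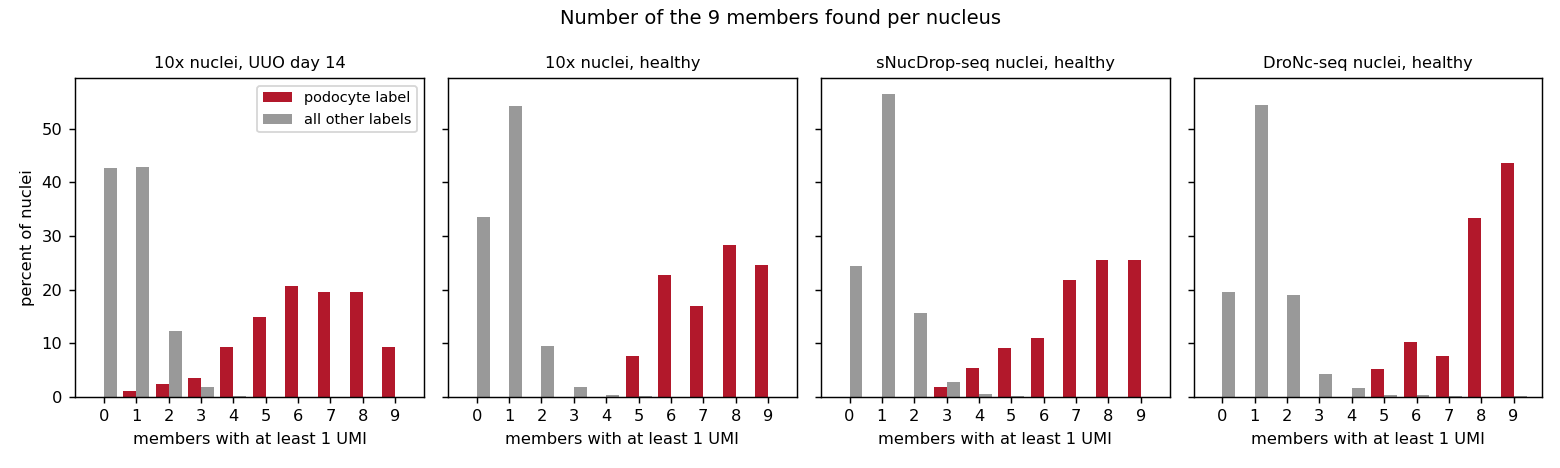
Percent of nuclei (vertical axis) by the number of the 9 members with at least 1 UMI (horizontal axis), for the podocyte label (red, left bar) and all other labels (grey, right bar) in the 4 nucleus libraries. Podocyte nuclei peak at 6 members in UUO and at 8 or 9 in the healthy libraries, and nuclei of other labels at 1, in UUO with 2594 nuclei at 1 and 2591 at 0.

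The lower count per nucleus in UUO went with its lower depth. After each nucleus was thinned to 500 UMIs, which left out 7 of 87 UUO podocyte nuclei and 0 of the healthy ones, the median podocyte nucleus held 5 members in all 4 libraries. At that depth Magi2 was found in 98.8% of UUO podocyte nuclei, against 100% of healthy 10x ones, and in 41.2% and 26.7% of proximal tubule nuclei of these libraries. Nphs1 was found in 36.3% (interval 25.8 to 47.8) of UUO podocyte nuclei, against 49.1% (35.1 to 63.2) of healthy 10x ones, and in 0 of 2320 proximal tubule nuclei of UUO, where 3 counts would be 0.129%, and 0.926% of those of healthy 10x. Clic5 was found in 46.3% (35.0 to 57.8) of UUO podocyte nuclei, against 17.0% (8.07 to 29.8) of healthy 10x ones, and in 5.52% and 3.24% of proximal tubule nuclei.

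UUO nuclei were set against healthy nuclei of the same 10x system, and in podocyte nuclei 8 of the 9 members lay within 2-fold. Clic5 was the 1 member of 9 at least 2-fold higher in UUO, where 12.7% of 2147 measured genes were, and 0 members were at least 2-fold lower, where 15.9% of genes were. Measured means at least 20 UMIs over both sums. Neither count stands apart from that background. Clic5 stood at 1141 CPM (112 UMIs) in UUO, against 348 CPM (39 UMIs) in healthy 10x, a log2 ratio of 1.71 (1.18 to 2.28). Set against the sNucDrop-seq podocyte nuclei in place of healthy 10x ones, a choice made after seeing the data, its log2 ratio was 0.92, and against DroNc-seq ones 0.75, so the 2-fold call rests on the healthy 10x value.

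Another 3 members had intervals above 0 on the log2 scale, Podxl at 0.72 (0.37 to 1.08), Magi2 at 0.63 (0.57 to 0.69) and Nebl at 0.58 (0.25 to 0.91). Those of Nphs1 at -0.45 (-0.90 to -0.02) and Thsd7a at -0.36 (-0.65 to -0.07) lay below 0. Synpo at 0.30, Wt1 at 0.35 and Ptpro at 0.08 had intervals that include 0. The median over the 9 members was 0.35, beside 0.06 over all measured genes. The direction of 3 members depended on the healthy library: against DroNc-seq podocyte nuclei the log2 ratio was -0.27 for Magi2, -0.96 for Synpo and -0.77 for Ptpro, and the median over the members was -0.27. CPM are shares of a total, so fewer UMIs of a gene per nucleus and more UMIs of other genes cannot be told apart.

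Markers of other cell types moved with the same contrast. In podocyte nuclei the 6 proximal tubule markers summed to 173 CPM in UUO, against 3106 in healthy 10x, with 3 of 6 at 0 in UUO and 0 of 6 in healthy 10x. The phosphate transporter Slc34a1 was at 0 in UUO podocyte nuclei, which allows 30.6 CPM, against 2026 CPM in healthy 10x ones. The 2 ascending limb markers summed to 91.7 CPM in UUO, against 3587, and the 4 distal tubule markers to 132 CPM, against 4382. Over the other labels these tubule lists were lower in UUO too, so the fall was not particular to podocyte nuclei. There the proximal tubule markers summed to 518.7 CPM in UUO, against 5963.5 in healthy 10x. The ascending limb ones summed to 218 CPM, against 4798, and the distal tubule ones to 355 CPM, against 6204. Endothelial markers summed to 173 CPM in UUO podocyte nuclei, against 402, with Pecam1 among those the other way at 50.9 CPM, against 26.8. Of these markers Plat stood at 40.7 CPM in UUO podocyte nuclei, against 152 in healthy 10x ones. In healthy 10x Plat was itself 9.35-fold higher in podocyte nuclei than over the other labels. The endothelial sum is therefore not a measure of endothelial RNA alone. Over the other labels the endothelial markers were higher in UUO, at 315 CPM, against 198. Parietal epithelial markers summed to 581 CPM in UUO podocyte nuclei, against 437, with Pax2 the other way at 91.7 CPM, against 223. Over the other labels they stood at 1644.5 CPM in UUO, against 915. The 6 mesangial and stromal markers summed to 356 CPM in UUO podocyte nuclei, against 196. Of them the actin-binding gene Cald1 stood at 326 CPM, against 107, and Gata3 went the other way at 10.2 CPM, against 71.4. Over the other labels the 6 were higher in UUO too, at 260 CPM, against 188. There Cald1 stood at 128 CPM, against 62.1, and Gata3 at 81.0 CPM, against 110. The part of all these marker lists in the members' ratios was not tested.

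**Figure D4:**
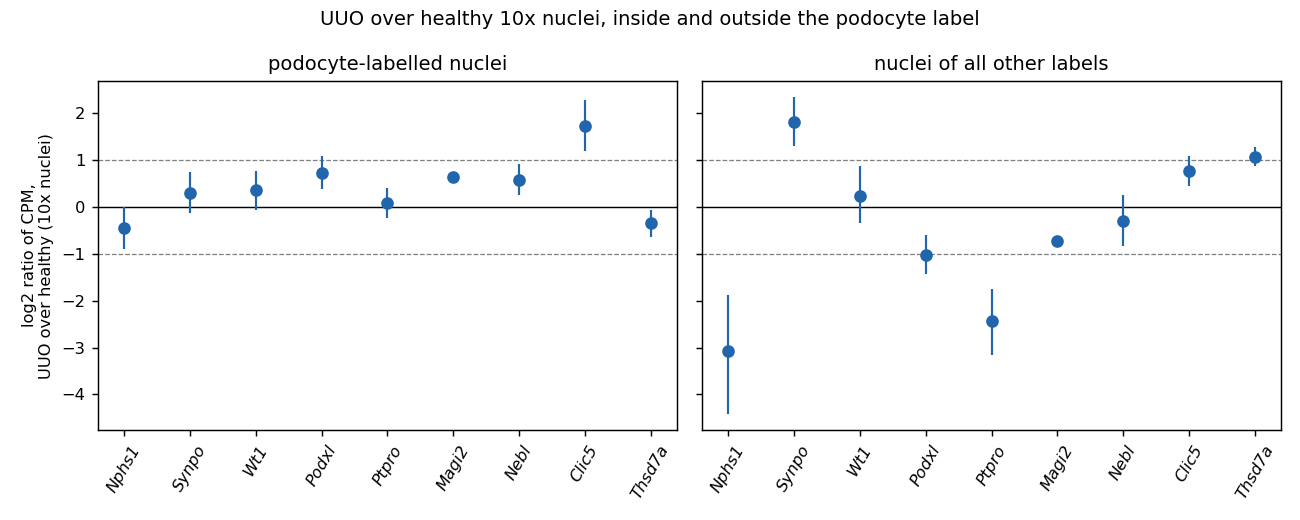
Log2 ratio of CPM, UUO over healthy 10x nuclei, for each member in podocyte-labelled nuclei (left) and in nuclei of all other labels (right), with exact 95% counting intervals and dashed lines at 2-fold. Inside the label only Clic5 passes 2-fold, at 1.71; outside it Synpo (1.80) and Thsd7a (1.06) stand above and Nphs1 (-3.07), Ptpro (-2.45) and Podxl (-1.03) below.

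Other podocyte genes in the same nuclei were read from lists chosen with earlier results of these data known. Of 11 measured slit diaphragm partners 3 were at least 2-fold higher in UUO and 0 lower, with a median log2 ratio of 0.19, where 12.7% of all measured genes were higher and 15.9% lower. They were Tjp1, the junction scaffold ZO-1, at 1487 CPM in UUO, against 482 in healthy 10x, the giant cadherin Fat1 at 519 CPM, against 107, and the actin scaffold Iqgap1 at 336 CPM, against 161. Over the other labels these genes were higher in UUO too, with Tjp1 at 200.5 CPM in UUO, against 109.7 in healthy 10x, Fat1 at 325 CPM, against 62.4, and Iqgap1 at 322 CPM, against 214. Of 10 foot process actin genes 0 were at least 2-fold apart in either direction (median 0.41), among them Myo1e, a myosin, at 723 CPM in UUO, against 723 in healthy 10x.

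The lists that follow are small, and their counts are read against the same 12.7% higher and 15.9% lower. Of 2 measured transcription factors besides Wt1, 1 was lower, Lmx1b, at 81.5 CPM in UUO, against 294 in healthy 10x, a log2 ratio of -1.85 (-3.18 to -0.71) from 8 and 33 UMIs. Dach1, a factor of the podocyte lineage, stood at 3269.5 CPM in UUO, against 2668. Of 6 basement membrane genes 2 were higher and 0 lower, both integrin chains that anchor the foot process: Itga3 at 316 CPM in UUO, against 134, and Itgb1 at 529.6 CPM, against 249.9. Over the other labels Itga3 stood at 99.96 CPM in UUO, against 48.7, and Itgb1 at 441 CPM, against 88.9. Of 8 secreted and surface genes 0 were higher and 1 lower, Vegfa, the growth factor that podocytes supply to glomerular endothelium, at 397 CPM in UUO, against 892, a log2 ratio of -1.17 (-1.74 to -0.62), and over the other labels at 18.6 CPM in UUO, against 98.4. Of 2 measured injury genes 1 was higher: Spp1, osteopontin, stood at 2862 CPM in UUO podocyte nuclei, against 125 in healthy 10x ones, and over the other labels at 3214 CPM in UUO, against 139.7.

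Outside the podocyte label the members differed more between UUO and healthy 10x, and not in 1 direction. At least 2-fold higher in UUO were 2 of 9 members, where 10.6% of 12806 genes were, and 3 were at least 2-fold lower, where 20.6% were. Synpo stood at 44.2 CPM in UUO, against 12.7 in healthy 10x, a log2 ratio of 1.80 (1.30 to 2.34), and Thsd7a at 171 CPM, against 82.2, a log2 ratio of 1.06 (0.86 to 1.27). Nphs1 stood at 1.09 CPM in UUO, against 9.17, a log2 ratio of -3.07 (-4.42 to -1.88) from 8 and 26 UMIs. Ptpro stood at 3.69 CPM in UUO, against 20.1, a log2 ratio of -2.45 (-3.16 to -1.76), and Podxl at 15.6 CPM, against 31.7, a log2 ratio of -1.03 (-1.44 to -0.61). The remaining 4 lay within 2-fold, with Magi2 at -0.74 (-0.80 to -0.68) and Clic5 at 0.75 (0.45 to 1.07). The lower calls rest partly on the healthy 10x nuclei outside the label that held 5 or more members. Without such nuclei in either library Nphs1 stood at 1.09 CPM in UUO, against 4.96, and Ptpro at 3.70 CPM, against 15.9. Both were still past 2-fold, as were Synpo and Thsd7a in the higher direction. Podxl stood at 15.6 CPM, against 28.0, within 2-fold. The nuclei left out were chosen by their member UMIs. Thsd7a was highest outside in PT(S3) and EC of UUO and Synpo in EC and Fib.1, and Synpo was at 18.6 CPM or more in all 16 other UUO labels. The label mix of the 2 libraries differs too: podocyte nuclei were 1.42% of the UUO library (1.14 to 1.74), against 2.54% of the healthy 10x library (1.91 to 3.31). Within proximal tubule labels alone, a comparison added after seeing the data, Synpo and Thsd7a were again past 2-fold in the higher direction, where 14.6% of genes were, and Nphs1, Ptpro and Podxl in the lower one, where 20.7% were. Nphs1 rests on 1 UMI in UUO and 8 in healthy 10x there, under the minimum of 20 in all. Synpo had a log2 ratio of 1.80 there and Thsd7a 2.34, at 213 CPM in UUO, against 42.1 in healthy 10x. Magi2 turned direction, at 1226 CPM in UUO proximal tubule nuclei, against 752 in healthy 10x ones, a log2 ratio of 0.71 (0.60 to 0.81).

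Whole cells and nuclei were compared outside the podocyte label, since Drop-seq had only 2 podocyte cells. Those 2 cells held 1198 and 2367 UMIs. The first had 1 UMI each of Nphs1 and Ptpro, the second 1 UMI of Nebl, and no UMI of the other 6 members was found, where a count of 0 allows up to 842 CPM. Both held the proximal tubule transcript Slc34a1, with 1 and 11 UMIs, and the 9 members gave 3 UMIs in all.

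Most members were higher in nuclei than in cells. The sums pool different label mixes, since proximal tubule labels were 34.7%, 61.6% and 59.6% of the other barcodes in 10x, sNucDrop-seq and DroNc-seq nuclei, against 85.6% in cells. Podocyte barcodes differed too, at 2.54%, 1.83% and 2.82% of those nucleus libraries, against 0.0566% of the Drop-seq library. Outside the label 5, 6 and 23 nuclei held 5 or more members, against 0 cells. The part of podocyte RNA outside the label in these ratios was not tested. Over all other labels 7 of 9 were at least 2-fold higher in healthy 10x nuclei than in Drop-seq cells, where 50.2% of genes were, 8 of 9 in sNucDrop-seq nuclei, where 50.7% were, and 8 of 9 in DroNc-seq nuclei, where 51.5% were. At least 2-fold lower were 0 of 9 in each, where 19.6%, 16.6% and 17.7% of genes were. The median over the members was 3.86, 3.52 and 4.56 on the log2 scale in 10x, sNucDrop-seq and DroNc-seq, beside 1.01, 1.02 and 1.07 over all measured genes, so the members' ratios are read against a shift of about 1. Thsd7a stood at 82.2, 76.4 and 107 CPM in 10x, sNucDrop-seq and DroNc-seq nuclei, against 1.60 CPM in cells, log2 ratios of 5.68, 5.58 and 6.07. Magi2 stood at 1466, 1492 and 1869 CPM in nuclei, against 75.7 CPM in cells, log2 ratios of 4.27, 4.30 and 4.63. Ptpro and Podxl had log2 ratios from 5.11 to 6.38, with Ptpro resting on 3 UMIs in cells, so that its fold in 10x was 46.0 with an interval from 15.0 to 229.8. Within proximal tubule labels alone, also added after seeing the data, nuclei passed cells by 2-fold or more for 6, 8 and 8 of 9 members in 10x, sNucDrop-seq and DroNc-seq, where 46.3%, 48.7% and 48.3% of genes were, and 0 were at least 2-fold lower, where 21.6%, 17.9% and 19.7% were. In 10x those 6 include Synpo (14 UMIs in nuclei and 3 in cells) and Wt1 (8 and 10), both under the minimum of 20. In these labels Thsd7a stood at 42.1, 50.04 and 86.04 CPM in nuclei, against 1.70 CPM in cells, folds of 24.8, 29.5 and 50.7. Magi2 stood at 752, 1531 and 2093 CPM in nuclei, against 76.0 CPM in cells, folds of 9.89, 20.2 and 27.5. In DroNc-seq PT(S3), 4 nuclei that held 5 or more members gave 59 of 83 Thsd7a counts and 735 of 1497 Magi2 counts. In PT(S1-S2), 8 such nuclei gave 21 of 202 and 267 of 5436. Without them Thsd7a stood at 28.7 CPM in PT(S3) and 74.4 in PT(S1-S2), and Magi2 at 912 and 2125 CPM.

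Clic5, Nphs1 and Nebl had the smallest ratios of the 9. Clic5 stood at 37.4, 66.4 and 60.9 CPM in 10x, sNucDrop-seq and DroNc-seq nuclei, against 49.9 CPM in cells, log2 ratios of -0.42, 0.41 and 0.29, all below the median gene. Within proximal tubule labels its direction in 10x turned, at 72.4 CPM in nuclei, against 53.6 CPM in cells, and its log2 ratios were 0.43, 0.48 and 0.45, beside 0.80, 0.93 and 0.92 for the median gene there. Nphs1 stood at 9.17, 28.9 and 29.1 CPM in nuclei, against 11.4 CPM in cells, log2 ratios of -0.31, 1.35 and 1.36. Nebl had log2 ratios of 1.06, 1.40 and 1.47, within 0.41 of the median gene. Under scaling to the median gene over all other labels Clic5 was lower in nuclei than in cells in all 3 libraries. The length of the gene and the share of it that is exon differ among members, and the sources used here do not say whether reads in introns were counted.

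**Figure D5:**
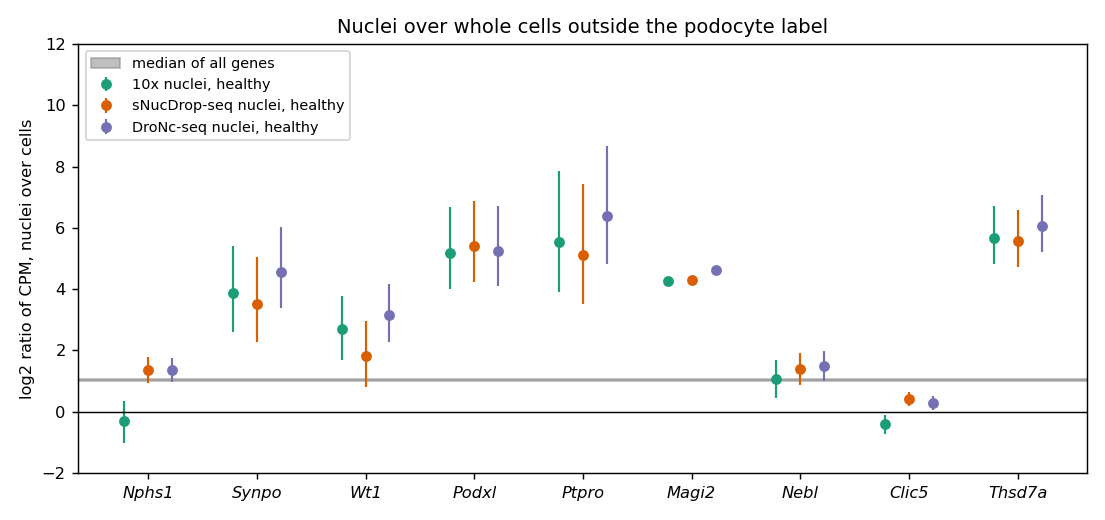
Log2 ratio of CPM, healthy nuclei of each platform over Drop-seq cells, for each member over all labels but podocyte, with exact 95% counting intervals and a grey band at the median of all measured genes (1.01 to 1.07). Synpo, Podxl, Ptpro, Magi2 and Thsd7a stand above 3.5 in all 3 platforms, and Clic5 stands below the band in all 3.

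Among healthy nucleus platforms the podocyte levels were closer. DroNc-seq over healthy 10x gave 1 of 9 members at least 2-fold higher, where 15.5% of 3006 genes were, namely Synpo at 1929 CPM in DroNc-seq, against 803 in 10x (log2 ratio 1.26, interval 0.93 to 1.61). DroNc-seq over sNucDrop-seq gave 2, where 7.5% of 3278 genes were: Synpo at 1.12 and Ptpro at 1.09. In sNucDrop-seq over healthy 10x 0 members were at least 2-fold higher, where 19.3% of 2592 genes were, and 0 were lower, where 17.7% were. Likewise 0 were at least 2-fold lower in DroNc-seq over sNucDrop-seq, where 12.3% were, and over healthy 10x, where 16.2% were. In DroNc-seq over healthy 10x 7 of 9 intervals lay above 0, and the median of the members was 0.86, beside -0.03 over all measured genes.

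The order of the members depends on what a level is scaled to. Magi2 spans 1478 kb on GRCm38 (chr5:19227036-20704792, plus strand), of which 0.768% is exon, and Nphs1 spans 28.9 kb (chr7:30458315-30487223, plus strand), of which 22.9% is exon. Per kb of gene, Nphs1 stood highest in healthy 10x podocyte nuclei at 35.2 CPM per kb, ahead of Podxl at 22.5 and Magi2 at 21.04. In UUO podocyte nuclei Podxl led at 37.1 CPM per kb, followed by Magi2 at 32.5 and Nphs1 at 25.7. Per kb of exon Magi2 led in all 4 nucleus libraries, at 4238 CPM per kb in UUO and 2739.8 in healthy 10x. The 9 members overlap 16 other annotated genes, of which 1 is listed in the tables, Gm44129 on the opposite strand of Thsd7a with 28 UMIs in the UUO library. Strand use in counting is not given, so reads of that pair cannot be told apart.

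Genes with the most similar pattern were ranked over 54 sums of a label and nucleus library, by Pearson r of log2(CPM + 10) with the mean of the members. Among the closest 10 that are not members were Lmx1b (r = 0.913), Ddn, Sgip1, Tdrd5, Myom2, Wt1os, Kcng2, Rab3b and Sema3e (r = 0.853). The members' own r, with the mean that holds them, ran from 0.773 for Thsd7a to 0.934 for Nebl. The sums share libraries and depth and the podocyte sums set most of each r, so these values are a description of these 54 sums. Sema3e, a secreted guidance protein, stood at 1375 CPM in UUO podocyte nuclei, against 634 in healthy 10x, and Sgip1, an endocytosis adaptor, at 1467 CPM, against 1178.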

How the data were processed

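UMI counts per gene and barcode were deposited by the authors as 2 tables, 1 of the 4 healthy libraries and 1 of UUO, with a cell type label for each barcode in the authors' deposited annotation. All values were whole numbers, and every barcode had a label. Per the submitters' processing notes, reads were handled with STAR 2.5.3a on genome build mm10. The sources used here say nothing of intron or strand counting, barcode filters or clustering.

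Within each label and library, counts of all barcodes were added up and divided by all UMIs of the sum (CPM). All barcodes were kept and doublets were not called; alternatives left out barcodes above 3 times the median UMIs of their label. Sums carry exact Poisson intervals, shares exact Clopper-Pearson intervals, and ratios an exact binomial interval given the total of both sums, at the 95% level. A gene was measured with at least 20 counts over both sums and called at 2-fold. Depth limits precision: 1 UMI in the UUO podocyte sum, of 98180 UMIs, is about 10.2 CPM. PCR copies are collapsed by UMI, and intervals and floors (3 counts) cover counting error only.

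The members and gene lists were chosen with earlier results of these data known. All 9 members are named, with genes from the 10 of most similar pattern among those of at least 5 CPM on average. From the lists, genes were named from the 4 with the most podocyte counts and those at least 2-fold apart between UUO and healthy 10x podocyte nuclei. Gene positions came from a GENCODE annotation of GRCm38. The ratio and its interval were tested on simulated data. TMM factors came from edgeR 4.0.16 under R 4.3.3. All else was computed with scipy 1.17.1 and numpy 2.4.6 under Python 3.11.15. A gene of the lists is counted in their totals but not reported by name here.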

Additional observations from a re-analysis of the deposited data

Results flagged for a closer look

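Between UUO and healthy 10x nuclei 3 members differed in opposite directions inside and outside the podocyte label, with counting intervals clear of 0 on both sides. Podxl had a log2 ratio of 0.72 in podocyte nuclei and -1.03 over all other labels. Magi2 had 0.63 and -0.74, and Thsd7a -0.36 and 1.06. Each group is 1 library, and the difference between the 2 ratios was not tested. Against DroNc-seq podocyte nuclei in place of healthy 10x ones, the podocyte ratio of Magi2 was -0.27, and within proximal tubule labels alone, in place of all other labels, its outside ratio was 0.71.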

How the results depend on the processing

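No paired analysis was possible because each group is 1 library and no result comes from a test. Replacing healthy 10x podocyte nuclei by sNucDrop-seq ones left 0 members at least 2-fold higher in UUO, and by DroNc-seq ones 0 higher, 2 lower (Thsd7a and Nphs1) and a median log2 ratio of -0.27; both were added after seeing the data. In nuclei over Drop-seq cells, both TMM and median-of-ratios scaling gave 2 members at least 2-fold lower in 10x and 5 higher in sNucDrop-seq, as they remove a shift near 1 of the median gene. Within proximal tubule labels alone, added after seeing the data, the median log2 ratio outside the podocyte label was 0.61 in UUO over healthy 10x (-0.30 over all other labels) and 4.78 in DroNc-seq nuclei over cells, and Magi2 in UUO over healthy 10x (0.71) and Clic5 in 10x nuclei over cells (0.43) turned direction. Totals without Malat1 gave a DroNc-seq median of 4.79. A mean of CPM over barcodes gave 1 member at least 2-fold higher outside the label in UUO over healthy 10x. The median level outside as a percent of podocyte level was 0.750% in UUO without endothelial, MC and fibroblast labels, and 1.63% in DroNc-seq without high-UMI barcodes. The median share of podocyte nuclei with a UMI of a member depends on depth. Thinned to 300 UMIs it was 34.9% in UUO, 30.2% in healthy 10x, 32.7% in sNucDrop-seq and 43.6% in DroNc-seq, thinned to 1000 UMIs 69.2% in UUO, 59.0% in healthy 10x, 65.9% in sNucDrop-seq and 78.6% in DroNc-seq, and unthinned 72.4%, 84.9%, 76.4% and 88.5%. Of the other values, over single members and alternatives, 565 moved little or within their counting interval and 211 beyond it, and 0 called ratios changed sign. The count minimum was varied for UUO over healthy 10x podocyte nuclei, where minimums of 1 and 100 both left 1 member at least 2-fold higher.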
